A study of Mus musculus with 12 samples.

Results

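The 7 genes described here belong to the cholesterol synthesis pathway and its control: Hmgcs1, Idi1, Sqle and Lss encode enzymes, Srebf2 encodes the transcription factor SREBP-2, and Insig1 and Insig2 encode proteins that hold SREBP back. They were chosen by name, as 7 of the 22564 genes in the expression table, and each has 1 row there. No gene of LDL uptake is among them. The series compares livers of male C57BL/6 mice at 8 weeks of age, either wild type or with a liver-specific deletion of Mettl3 (cKO). Mettl3 is the catalytic subunit of the complex that places N6-methyladenosine (m6A) in mRNA. The labels name neither the Cre driver nor the deleted exons. RNA was fragmented and sequenced either directly (input) or after precipitation with an anti-m6A antibody (IP). The labels list 3 livers per genotype, but values tied to a genotype were used from 1 input library and 1 IP peak list each, named control (read as wild type) and case (read as cKO). That reading is not stated in the labels. There was no replicate check, and differences are between these libraries rather than between genotypes.

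Cholesterol is built from acetyl-CoA through mevalonate, isoprenoid diphosphates, squalene and lanosterol, and the liver is a main site of this synthesis. When sterols in the endoplasmic reticulum are low, the escort protein SCAP carries SREBP-2 to the Golgi, where proteolysis releases its transcription factor domain. That domain binds sterol regulatory elements in the promoters of the pathway's genes, usually beside sites for NF-Y and Sp1. When sterols are plentiful, INSIG proteins retain SCAP and SREBP in the endoplasmic reticulum.

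The promoters are shown because the levels of these genes, which belong to 1 pathway and its control, are compared below. RefSeq start sites of the build GRCm38.p6 were matched for 6 of the 7 genes (8 start sites, 3 of them of Insig2), with no entry for Sqle. The windows searched held 250 bases before and 50 bases after each start, and 4 of the stretches before the start are printed 5′ to 3′ on the gene's strand. Capitals mark the letters searched on both strands: TCACNCCAC (a sterol regulatory element), TCACNCCA (the same without its last letter, added after the sequences were seen), CCAAT (the NF-Y box) and GGGCGG (the Sp1 box). The stretches lie at chr13:119690101-119690350 (plus strand, Hmgcs1), chr15:82147019-82147268 (plus strand, Srebf2), chr5:28071162-28071411 (plus strand, Insig1) and chr1:121332590-121332839 (minus strand, Insig2, the most upstream of its starts).
Hmgcs1: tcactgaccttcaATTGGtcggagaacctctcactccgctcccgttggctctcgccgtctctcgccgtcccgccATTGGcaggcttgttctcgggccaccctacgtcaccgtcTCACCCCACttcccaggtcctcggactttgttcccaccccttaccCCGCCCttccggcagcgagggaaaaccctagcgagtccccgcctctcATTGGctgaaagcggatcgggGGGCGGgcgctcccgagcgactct
Srebf2: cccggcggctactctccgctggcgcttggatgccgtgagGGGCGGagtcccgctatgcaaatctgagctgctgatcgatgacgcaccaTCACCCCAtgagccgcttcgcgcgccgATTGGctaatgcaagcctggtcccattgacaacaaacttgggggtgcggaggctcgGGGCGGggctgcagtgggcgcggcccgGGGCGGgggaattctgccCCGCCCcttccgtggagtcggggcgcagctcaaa
Insig1: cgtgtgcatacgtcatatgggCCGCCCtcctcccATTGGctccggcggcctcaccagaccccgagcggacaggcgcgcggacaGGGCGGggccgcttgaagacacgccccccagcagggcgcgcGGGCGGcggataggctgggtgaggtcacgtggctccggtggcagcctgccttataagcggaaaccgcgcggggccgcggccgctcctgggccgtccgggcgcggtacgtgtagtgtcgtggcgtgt
Insig2: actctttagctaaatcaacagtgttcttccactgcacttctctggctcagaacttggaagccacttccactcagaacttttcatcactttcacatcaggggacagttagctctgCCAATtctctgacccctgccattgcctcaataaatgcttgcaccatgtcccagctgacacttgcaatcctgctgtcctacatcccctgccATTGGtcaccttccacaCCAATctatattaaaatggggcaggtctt

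The full element TCACNCCAC was found in 1 of the 6 genes, Hmgcs1, where it began 137 bases before the start. It was present for 1.44% of the 27025 genes with a promoter in the table. The shorter TCACNCCA, which lies within it, was also found in Srebf2, beginning 162 bases before the start, and for 4.97% of all genes. CCAAT was found in 6 of 6 genes and GGGCGG in 6 of 6, against 41.1% and 38.2% of all genes. In Insig2 the GGGCGG matches lay at starts other than the one printed. In Idi1 a pair of CCAAT boxes in reverse began 45 and 14 bases before the start, and Lss carried 1, which began 62 bases before. These matches describe letters in the windows, not bound sites.

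The deleted gene, Mettl3, checks the labels. Its deposited FPKM (fragments scaled by gene length and library depth) was 3.44 in the control input, from 12 fragments. The case input gave 2.91 FPKM, from 17 fragments. The ratio of fragments scaled by the authors was 1.21, case over control, with a 95% exact interval of 0.545 to 2.78 that covers counting error only. With the libraries set to equal totals of non-mitochondrial fragments the ratio was 0.726 (interval 0.327 to 1.67). Both intervals include equal levels, and a ratio below 0.327 lies outside both. Mettl3 thus did not separate the libraries, and the column names alone give every direction below. The control input held 1737360 fragments and the case input 3564822.

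The control and case livers also differed in their cell type markers. All 10 Kupffer cell markers were called lower, and their summed level was 628 FPKM in the control input against 16.3 FPKM. None of these markers was listed at exactly 0 in either library, although Csf1r had 785 and 0 fragments. Sinusoidal endothelial markers (10 of 10 lower) summed to 291 and 29.4 FPKM, and the 7 stellate cell markers of 10 that passed the filter on low levels were also lower, with sums over all 10 of 131 and 13.7 FPKM. Of 10 hepatocyte markers 9 were called higher, by the rule given in the next paragraph, and together they summed to 14457 and 31121 FPKM, which places both libraries as liver. In bulk RNA, fewer cells of a type and less RNA per cell cannot be told apart. Every sterol result below moves with these markers, and their part in it was not tested.

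Of the 7 genes, 5 were called higher in the case input and none lower. A gene was called when log2(FPKM + 1), a scale that understates the change of low genes, differed by at least 1, among 9584 genes with a mean of at least 1 FPKM; of these 23.6% were called higher and 13.2% lower. The median difference of the 7 genes was 2.33 on this log2 scale, against 0.41 over all genes compared. Insig2 stood above 99.6% of all genes compared, and Hmgcs1, Idi1, Sqle and Insig1 above 98.3% to 98.8%. Lss and Srebf2 stood above 68.1% and 71.5%. The 10 hepatocyte markers had a median difference of 1.85 and ranged from 0.92 to 2.49. On this scale Insig2 lay above that range, Hmgcs1, Idi1, Sqle and Insig1 within it, and Lss and Srebf2 below it. These places depend on the scale. By FPKM ratio the markers ran from 1.89 (Alb) to 5.65 (Tat). Insig2 (8.18), Idi1 (6.25), Hmgcs1 (5.83) and Sqle (5.76) then lay above them. Insig1 (5.36) and Srebf2 (2.05) lay within and Lss (1.84) below. By ratio of scaled fragments Lss (4.01) also lay within the range of the markers, 1.89 to 5.65.

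**Figure D1:**
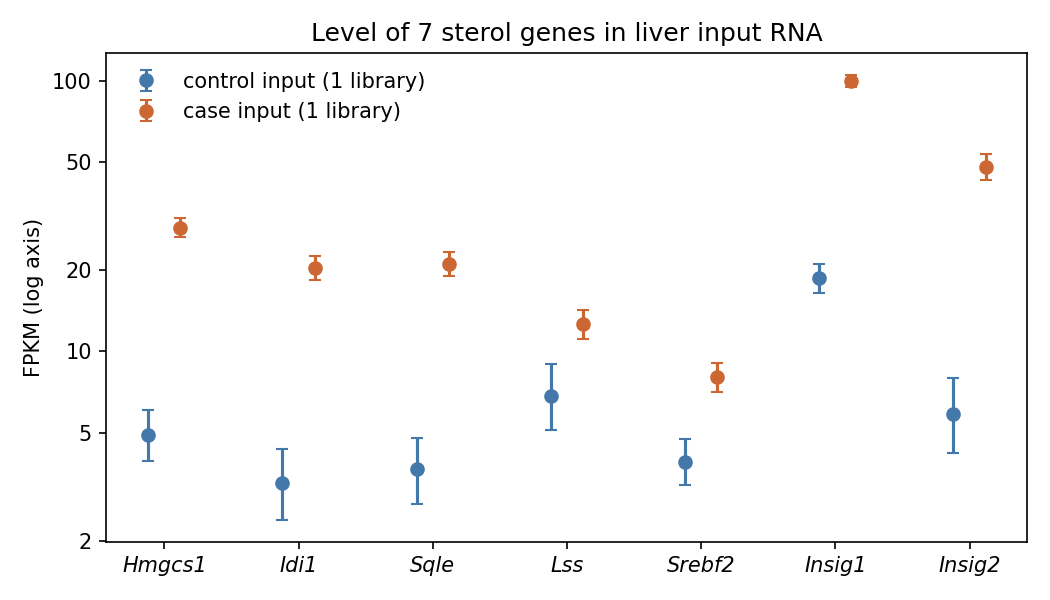
Level of the 7 genes in the control input (blue) and the case input (orange), 1 library each, as FPKM on a log axis. Bars are 95% exact Poisson intervals of the fragments behind each value, which cover counting error only, and the case value is higher for all 7 genes, with the smallest gaps at Lss and Srebf2.

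Hmgcs1 encodes the cytosolic HMG-CoA synthase, which joins acetyl-CoA and acetoacetyl-CoA at the entry of the mevalonate pathway (chromosome 13, 119690462 to 119708086, plus strand, mm10). The control input gave 4.93 FPKM (85 fragments), and the case input gave 28.7 FPKM (580 fragments). The log2 difference was 2.33, and the ratio of scaled fragments was 5.83 (interval 4.63 to 7.41). Of the 6 genes with a promoter searched, Hmgcs1 alone held a match to the letters TCACNCCAC.

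Idi1 encodes the isomerase that converts isopentenyl diphosphate into dimethylallyl diphosphate, the primer of isoprenoid chains (chromosome 13, 8884914 to 8892451, plus strand). Its level was 3.26 FPKM in the control input, on 46 fragments, against 20.4 FPKM on 385 fragments in the other library. By FPKM it was 6.25 times as high in the case input, and by scaled fragments 7.15 times (interval 5.26 to 9.93). Idi1 was the lowest of the 7 genes in the control input but not in the case input.

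Sqle encodes squalene epoxidase, which adds the first oxygen of the sterol branch (chromosome 15, 59315077 to 59331192, plus strand). It was measured at 3.67 FPKM with 52 control fragments and at 21.1 FPKM with 367 case fragments. The log2 difference was 2.24, and the fragment ratio was 6.03 (interval 4.50 to 8.22). Sqle, Idi1 and Hmgcs1 thus differed by similar amounts, with overlapping intervals of their fragment ratios.

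Lss encodes lanosterol synthase, which closes the rings of epoxidized squalene (chromosome 10, 76531588 to 76562226, plus strand). Its 2 measures differed. By FPKM the control value was 6.85 and the case value 12.6, a ratio of 1.84, which was not called. Its fragments numbered 53 and 249, and their scaled ratio was 4.01 (interval 2.97 to 5.51). Each 100 fragments of Lss stood for 12.9 FPKM in the control input but for 5.06 FPKM in the case input. For the other 6 genes the FPKM ratio was 0.875 to 1.23 times the fragment ratio, whereas for Lss it was 0.458 times. A disagreement of at least 2-fold was found in 2.95% of the 8024 genes with 10 or more fragments in both libraries. The deposited locus of Lss ends beyond its RefSeq gene, and the reason for the disagreement was not tested.

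Srebf2 encodes SREBP-2, the main activator of the pathway (chromosome 15, 82147266 to 82205376, plus strand). Its control level was 3.92 FPKM (106 fragments), and its case level was 8.02 FPKM (254 fragments). Its FPKM ratio was 2.05, but the difference of log2(FPKM + 1) was 0.87 and was not called. That is 0.47 above the median of all genes. The fragment ratio was 2.05 (interval 1.63 to 2.59). With the 2 libraries set to equal totals of non-mitochondrial fragments the ratio was 1.23, with an interval of 0.975 to 1.56 that includes 1. Both measures of Srebf2 were in the same proportion, unlike those of Lss.

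Insig1 encodes the INSIG protein whose own gene is a known SREBP target (chromosome 5, 28071363 to 28078662, plus strand). It was the most abundant of the 7 genes in both libraries, at 18.7 FPKM on 266 control fragments and 100.045 FPKM on 1671 case fragments. The log2 difference was 2.36, and the fragment ratio was 5.37 (interval 4.71 to 6.13). No other of the 7 genes rested on as many fragments.

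Insig2 encodes the second INSIG protein, which in mouse liver is made from transcripts with alternative first exons (chromosome 1, 121304353 to 121332589, minus strand). It stood at 5.89 FPKM in the control input, on 41 fragments, and at 48.2 FPKM in the case input, on 318. It was 8.18 times as high by FPKM, the highest FPKM ratio of the 7, and 6.62 times by scaled fragments (interval 4.77 to 9.41). The deposited table has 1 row for the gene, so the alternative transcripts were not told apart. In both libraries Insig2 stayed below Insig1, with no overlap of their counting intervals.

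The order of levels differed between the libraries. In the control input Insig1 led and its counting interval (16.5 to 21.0 FPKM) was clear of the next gene. The other 6 followed as Lss, Insig2, Hmgcs1, Srebf2, Sqle and Idi1, and each overlapped its neighbour. In the case input the order was Insig1, Insig2, Hmgcs1, Sqle, Idi1, Lss and Srebf2, and only Sqle and Idi1 overlapped as neighbours. With 2 libraries no gene of like pattern was sought.

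The calls for 5 of the genes did not depend on scale. Hmgcs1, Idi1, Sqle, Insig1 and Insig2 were called higher on each of 9 scales and filters, with log2 ratios from 1.51 to 3.01. Of the 9, 2 changed only the filter, which leaves a gene's ratio as it is. Lss was called on 2 of the 9, at 1.25 with fragments scaled to equal totals and 1.99 with the deposited scaled counts, and otherwise ranged from 0.12 to 0.87. Srebf2 was called on 2 of the 9, with a range of 0.24 to 1.03. Over all genes the split of calls turned with scaling: with equal totals 7.35% were higher and 20.3% lower, and the median difference was -0.16.

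**Figure D2:**
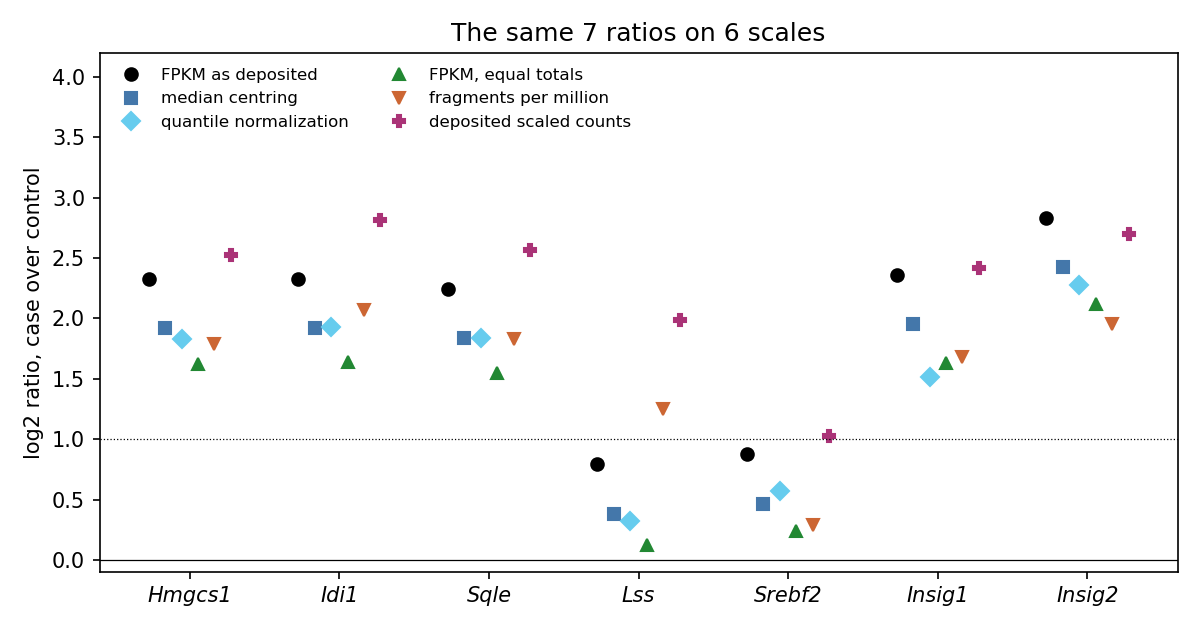
Log2 ratio, case over control, of the 7 genes on 6 scales made from the same 2 libraries, with the dotted line at the threshold of 1. Insig1, Insig2, Hmgcs1, Idi1 and Sqle lie above the threshold on all 6 scales, and Lss spans 0.12 to 1.99.

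The remaining genes of sterol metabolism were described by lists. Of 46 genes in 5 lists, 45 passed the filter, 25 were called higher and 3 lower, with a median log2 difference of 1.18. Of all genes compared 23.6% were called higher and 13.2% lower. With equal totals 13 were higher and 5 lower, where 7.35% and 20.3% of all genes were. With fragments set to equal totals in place of FPKM the counts were 16 and 5, beside 10.4% and 24.3%. Median centring gave 14 and 4, beside 11.6% and 18.4%. No test of these lists was made.

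All 10 other enzymes of the squalene and sterol steps were called higher, with a median of 1.78. Sc4mol, the sterol C4-methyl oxidase now named Msmo1, had a control level of 7.24 FPKM and a case level of 49.5 FPKM. For Sc5d, the lathosterol desaturase, the same pair of levels was 17.4 and 98.9 FPKM. By log2(FPKM + 1) the smallest differences of the list were in Nsdhl (1.86 and 5.43 FPKM) and Hsd17b7 (2.13 and 7.22 FPKM), which act in C4 demethylation. For Hsd17b7 the measures differed, with an FPKM ratio of 3.39 and a fragment ratio of 5.77 (interval 3.86 to 8.91). Its low place in the list holds on the log2(FPKM + 1) scale but by neither of these ratios. In the mevalonate pathway 6 of 7 were called higher, with a median of 1.26. Fdps, the farnesyl diphosphate synthase, had 8.80 and 41.1 FPKM. Pmvk, the phosphomevalonate kinase, had 3.36 and 8.88 FPKM. The gene not called was Ggps1, which leads away from sterols to geranylgeranyl diphosphate, at 0.820 and 1.23 FPKM from 10 and 18 fragments.

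The machinery that processes SREBP and degrades its ER partners was more mixed, with 4 of 10 called higher, 0 lower and a median of 0.80. Srebf1, the SREBP gene that favours fatty acid synthesis, stood at 22.1 FPKM and, in the case input, 116 FPKM, a log2 difference of 2.35 that compares with 0.87 for Srebf2. Faf2, an ER factor of protein extraction, had 3.03 and 12.6 FPKM, a ratio of 4.15, against a fragment ratio of 2.53 (interval 1.82 to 3.57). The site-2 protease gene Mbtps2 had 2.12 and 1.22 FPKM and the ubiquitin ligase gene Rnf145 had 7.38 and 4.86 FPKM, neither of them called.

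Among sterol uptake and transport genes 2 of 10 were called higher and 1 lower, with a median of 0.49, shares near the 23.6% and 13.2% of all genes compared. Stard4, a sterol carrier, had 3.75 and 15.7 FPKM. Mylip, the ubiquitin ligase that degrades the LDL receptor and is a target of the sterol sensor LXR, had 8.04 and 1.36 FPKM. The lysosomal sterol binder Npc2 had 9.25 and 5.20 FPKM and was not called. Efflux and esterification genes divided, with 3 of 8 called higher and 2 lower and a median of 0.40, close to the 0.41 of all genes compared. The hepatobiliary sterol transporters Abcg5 and Abcg8 had control levels of 5.30 and 4.73 FPKM and case levels of 34.5 and 22.5 FPKM. They share a locus in the deposited table, so how fragments were divided between them is uncertain. Abcg1 (8.42 and 0.574 FPKM) and Soat1 (3.59 and 0.132 FPKM), both abundant in macrophages, were lower beside the Kupffer cell markers given above. The part of those cells in these differences was not tested.

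**Figure D3:**
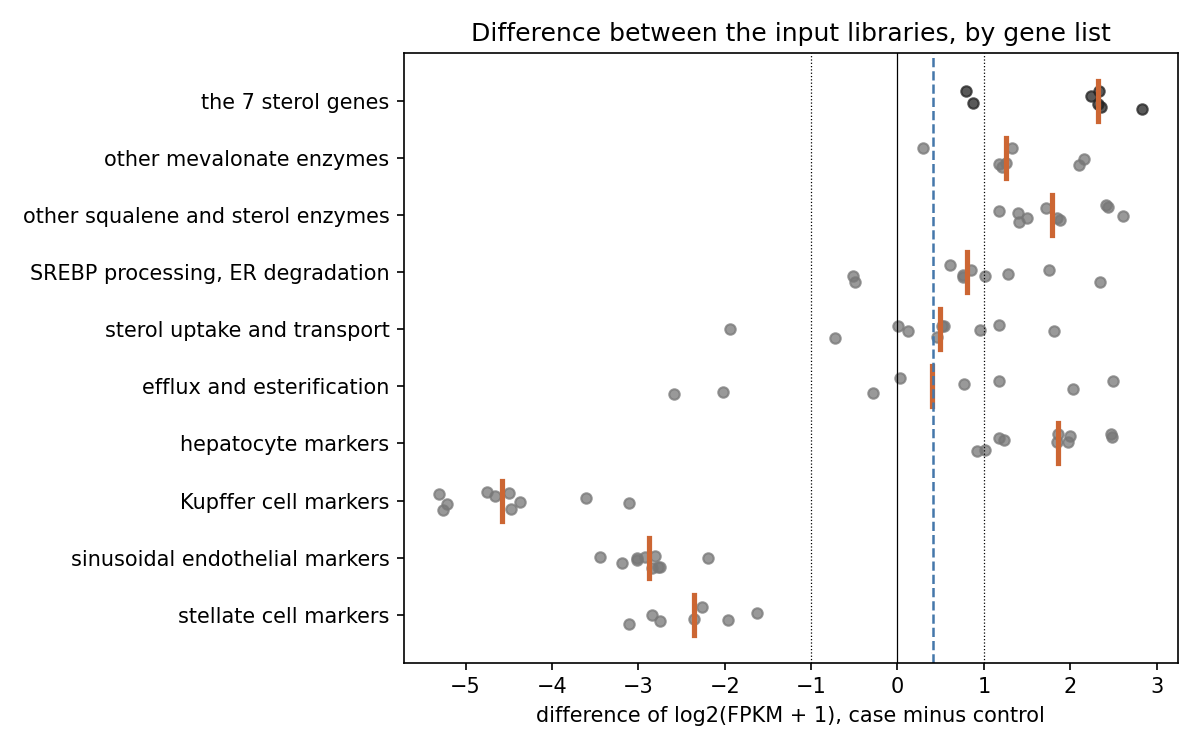
Difference of log2(FPKM + 1), case minus control, for each gene with a mean of at least 1 FPKM (points) in the 7 sterol genes, 5 other sterol lists and 4 marker lists, with the list's median (orange bar). The dashed blue line is the median of all compared genes (0.41) and dotted lines mark the threshold of 1 either way, and all Kupffer cell, endothelial and stellate points lie below -1.

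m6A marks were compared through the peaks deposited for each IP library. A peak's fold enrichment is the authors' ratio of IP over background and is used here only within its list. All 7 genes had a control-list peak, against 65.6% of the genes compared, and 3 of 7 had a case-list peak, against 65.4%. The 7 genes held 18 control-list peaks covering 6355 bases and 3 case-list peaks covering 997 bases, although the lists are of similar length (17175 and 17277 peaks). Each of the 7 genes had more control-list than case-list peaks, which held for 34.0% of all genes compared.

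This excess ran with the difference between the 2 inputs. Of the genes called higher 58.3% had more control-list than case-list peaks, of those not called 30.8%, and of those called lower 5.70%. Over all genes compared there were 1.62 control-list and 1.51 case-list peaks per gene. The depth of the IP libraries is not known from the files used, and the part of input level in the peak counts was not tested.

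Hmgcs1 carried the most peaks, 5 in the control list and 1 in the case list. Its first control peak (chromosome 13, 119699664 to 119700121, 458 bases) had a fold enrichment of 109, above 90.1% of the control list. The single case peak lay at exactly the same coordinates, with a fold of 4.28, above 5.82% of the case list. The next control peaks had folds of 75.1 and 73.8. The last, at 119706389 to 119707864, was the longest of the 7 genes, with 1476 bases and a fold of 10.1, and ended 396 bases before the RefSeq gene end.

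Idi1 had 2 control peaks near its end, at 8890371 to 8890570 (fold 9.97) and 8891778 to 8892451 (fold 30.2) on chromosome 13. Its case peak lay elsewhere, at 8886732 to 8886904, which begins 1126 bases after the gene start, with a fold of 4.32. Sqle had a 33-base control peak with a fold of 3.86, the weakest of the 18. It also had 1 at chromosome 15, 59330725 to 59330962, with a fold of 58.2, ending 231 bases before the gene end. Lss had 1 control peak, at chromosome 10, 76533513 to 76533651, with a fold of 101, above 88.2% of its list. It lay 1948 bases from the start of a gene of 25575 bases, and Lss alone of the 7 genes had no peak within 2000 bases of its end. Neither Sqle nor Lss had a case-list peak.

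Srebf2 had control peaks at chromosome 15, 82178717 to 82178909 (fold 22.4) and 82203993 to 82204368 (fold 13.5), the second ending 1011 bases before the gene end. The nearest case-list peak was 138632 bases from the first of them. Insig1 had 3 control peaks on chromosome 5, of which 28076791 to 28077706 was the highest, with 916 bases and a fold of 28.2, and it had none in the case list. Insig2 had 3 control peaks on chromosome 1. The highest was at 121307140 to 121307318, with a fold of 64.9. The most upstream, at 121327521 to 121327606 with a fold of 17.8, lay 72 to 157 bases downstream of the RefSeq start at 121327678. That start is a different one from the start whose upstream bases are printed above. Its case peak, at 121304459 to 121304824 with a fold of 3.95, fell 88 bases beyond its last control peak, and both were near the gene end, at distances of 106 and 559 bases.

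Only the Hmgcs1 peak was shared: 1 of 18 control peaks (5.56%) and 1 of 3 case peaks (33.3%) were overlapped by at least 1 base of the other list, against 35.5% and 35.3% of all peaks. Of the 18 control peaks, 8 ended within 2000 bases of the gene end, in 6 of the genes. That share was not computed over all peaks of the list, so the count describes these peaks only. A fold above the median of their list (28.5) was found for 7 of the 18. None of the 3 case peaks had a fold above the median of theirs (14.95). The deposited false discovery rates were 1.15% to 7.40% for the 18 control peaks and 14.3% to 21.7% for the 3 case peaks, with medians of 1.66% and 12.3% over the lists. The 46 other sterol genes held 136 control-list and 58 case-list peaks, where all genes compared held 1.62 and 1.51 per gene. Of the 46, 28 had more in the control list and 8 more in the case list. More control-list peaks were held by 34.0% of all genes compared and by 58.3% of those called higher. The share of all genes with more case-list peaks was not computed.

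**Figure D4:**
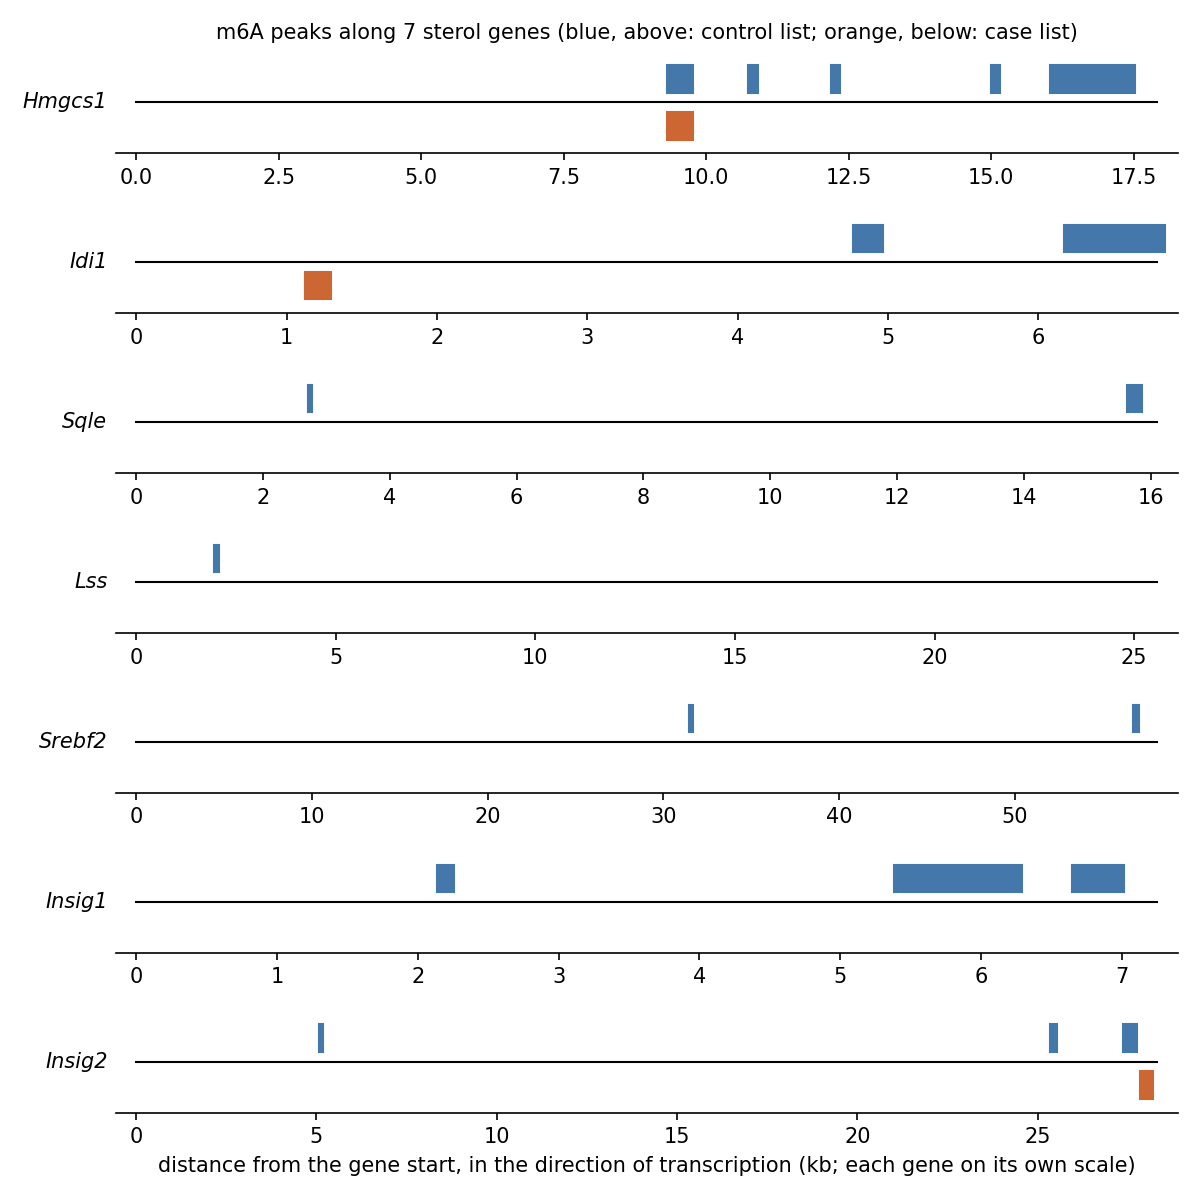
Peaks along the 7 genes, from the RefSeq gene start in the direction of transcription, in kilobases on a scale of each gene's own, with control-list peaks in blue above the line and case-list peaks in orange below. The 18 control peaks and 3 case peaks coincide at 1 site, in Hmgcs1, and the case peaks of Idi1 and Insig2 lie beside no overlapping control peak.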

How the data were processed

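Levels in input RNA and m6A peaks were taken for the 7 genes from mouse liver libraries. Per the submitters' processing notes, cutadapt 1.9.3, HISAT2 2.0.4, Cuffdiff, Cufflinks and mm10 were used, without roles or order. The authors deposited FPKM values and a signal headed as counts. The low values of that signal are whole multiples of a step, and division by it gave fragments; 92.4% of control and 91.2% of case values above 0 came out whole within 0.02. No count test was run on them. Per the file headers, each deposited peak has a fold enrichment (a ratio), a score (-10 times log10 of p) and a false discovery rate in percent, which were not recomputed. The authors' peak caller named its peaks MACS; no version or background for it is given in the sources used here. Peak starts count from 0 in the deposited lists: after adding 1, 308 control and 250 case starts met a GRCm38.p6 gene start, against 22 and 24 without. Coordinates here count from 1, and gene ends are those of RefSeq.

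Columns named control and case were read as the WT and cKO groups. A further 8 columns and 4 peak lists carry numbers that match no label and were not used. The 13 mitochondrial genes were set aside, and genes with a mean of at least 1 FPKM were compared by log2(FPKM + 1), which understates low genes. With 1 library per genotype no p-value or standard deviation is given. Intervals are 95% exact (Poisson for fragments, Clopper-Pearson for ratios) and cover counting error alone. They treat fragments as independent, which PCR copies of a molecule are not, so they can be too narrow. The calls were tested on simulated counts that held counting error only and planted differences larger than the threshold. That does not test variation between livers or differences near the threshold. The genes, lists and promoter letters were chosen with earlier results of these data known. Named genes were the 7, Mettl3, and the 2 highest and 2 lowest of each list; 2 genes the rule would name are not reported here. Marker lists held 10 genes each. Alternatives were other scales, pseudocounts of 0.1, filters, peak thresholds and overlaps. Python 3.11.15, numpy 2.4.6, pandas 2.3.3, scipy 1.17.1 and matplotlib 3.10.9 were used.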

Additional observations from a re-analysis of the deposited data

How the results depend on the processing

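Under 8 alternatives the 56 log2 ratios of the 7 genes stayed above 0, with 36 within the counting interval of the reported value and 20 beyond it. The alternatives that changed only the filter leave each gene's ratio as it was. Their values could not differ and are counted among the 36. The count of the 7 genes called higher was 5, 6 or 7. For the 45 other sterol genes the 25 called higher became 13 with equal totals, 14 with median centring and 16 with fragments scaled to equal totals in place of FPKM. The share of all genes called higher went from 23.6% to 7.35%, 11.6% and 10.4% in the same order. The 3 called lower became 5 with equal totals, 5 with those fragments and 0 at a mean of at least 5 FPKM, a filter that drops genes. The share of all genes called lower went from 13.2% to 20.3%, 24.3% and 8.96% in the same order. Of the 18 control-list peaks 6 were among the 5000 highest folds of their list. Of the 3 case-list peaks 1 had a false discovery rate of at most 15% and 0 were among the 5000 highest folds. Requiring that 50% of a peak be overlapped gave the same shared peak. The deposited scaled counts were added as a scale after the data were seen. No paired analysis was possible because each genotype had 1 usable library, and for the same reason no library could be left out and no model was fitted. The peak letters planned for a search and the comparison of INSIG proteins were not run, since no genome or protein table was used here. Depth limits Idi1, Insig2, Sqle and Lss most, with 41 to 53 fragments each in the control input.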

Other observations

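Enzymes that draw isoprenoid diphosphates away from sterols, for dolichol, ubiquinone and protein prenylation, were looked at with a list chosen after the data were seen. Of 13 genes, 11 passed the filter on low levels, 5 were called higher and 0 lower, where 23.6% and 13.2% of all genes compared were. The median log2 difference was 0.51, against 0.41 over all genes compared. The genes named were chosen after their values were seen. Rabggta, a subunit of the enzyme that prenylates Rab proteins, had a control level of 2.89 FPKM and a case level of 10.5 FPKM. Its partner Rabggtb had 0 control fragments and 25 case fragments. Dhdds, which makes the dolichol precursor together with Nus1, had 3.09 and 7.53 FPKM, while Nus1 had 6.24 and 5.80. Coq2, of ubiquinone synthesis, had 4.30 and 4.83 FPKM. The 13 genes held 13 control-list and 8 case-list peaks, where all genes compared held 1.62 and 1.51 per gene.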
